A study of Mus musculus with 4 samples.

Results

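*Gas5* and 9 genes of the *Snhg* family were examined as hosts of small nucleolar RNAs (snoRNAs) in a transcriptome of *Setd2*-depleted mouse fibroblasts. The members were the rows of the transcript table that carry the symbol *Gas5*, *Snhg1*, *Snhg3*, *Snhg5*, *Snhg6*, *Snhg8*, *Snhg12*, *Snhg15*, *Snhg17* or *Snhg20*. They make up 29 of the 34200 transcripts tested, from 10 of 21945 genes. NIH/3T3, an immortalised line of mouse embryonic fibroblasts, was transfected in both groups with siRNA at 10 nM and collected after 48 h. KD cells received 2 siRNAs against *Setd2*, the histone methyltransferase that trimethylates lysine 36 of histone H3, and WT cells received Scrambled siRNA. Each group had 2 libraries of polyadenylated RNA, and an siRNA lowers a transcript without removing the gene.

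snoRNAs guide the chemical modification of other RNAs. C/D box snoRNAs direct ribose methylation, H/ACA box snoRNAs direct pseudouridylation, and most of those in mammals are cut out of the introns of a host transcript after splicing. The hosts of the *Gas5* and *Snhg* type carry little or no coding sequence in their spliced RNA. *Gas5* is the textbook example. It was found as a transcript that accumulates in growth-arrested fibroblasts, its exons are poorly conserved next to its intronic snoRNAs, and its spliced RNA is degraded when it is translated, by nonsense-mediated decay. Several hosts belong to the terminal oligopyrimidine (TOP) class, whose transcripts start with a C followed by a run of C and T and which also holds the mRNAs of ribosomal proteins.

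In the GENCODE annotation of GRCm38, 34 snoRNA genes lay inside the 10 members on the same strand. Of these, 24 lay in introns and overlapped no exon of the tested host transcripts, and 10 overlapped an exon of at least 1 of them. *Gas5* held 10 and *Snhg1* held 8, and the others held between 1 and 5. *Snord80* in *Gas5* and *Snora16a* in *Snhg12* are each annotated as overlapping genes, which are counted separately here. The snoRNA sequences below were read from the GENCODE transcripts and are shown because their rows are compared with their hosts further on. Capitals mark TGATGA (the C box) within the first 15 bases together with CTGA (the D box) within the last 12 bases. In *Snora73a*, *Snora73b* and *Snora24* they mark ACA placed 3 bases before the end, the mark of the H/ACA class. *Gm22357* and *Gm23212* come from *Gas5*, *Gm24452* and *Gm22680* from *Snhg1*, *Snora73a* and *Snora73b* from *Snhg3*, and *Snora24* from *Snhg8*.
Gm22357: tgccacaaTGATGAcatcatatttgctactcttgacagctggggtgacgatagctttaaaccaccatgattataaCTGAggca
Gm23212: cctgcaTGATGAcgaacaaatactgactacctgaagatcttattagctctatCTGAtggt
Gm24452: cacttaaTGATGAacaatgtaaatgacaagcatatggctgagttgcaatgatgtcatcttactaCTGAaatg
Gm22680: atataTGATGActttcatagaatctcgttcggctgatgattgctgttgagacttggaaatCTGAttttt
Snora73a: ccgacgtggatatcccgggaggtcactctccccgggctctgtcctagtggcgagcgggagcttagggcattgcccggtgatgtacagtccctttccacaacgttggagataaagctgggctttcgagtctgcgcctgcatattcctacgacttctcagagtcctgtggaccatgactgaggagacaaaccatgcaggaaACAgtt
Snora73b: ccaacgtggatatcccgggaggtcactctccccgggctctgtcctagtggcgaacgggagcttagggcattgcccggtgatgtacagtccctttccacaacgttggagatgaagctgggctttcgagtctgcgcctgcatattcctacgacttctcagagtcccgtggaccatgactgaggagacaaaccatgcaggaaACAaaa
Snora24: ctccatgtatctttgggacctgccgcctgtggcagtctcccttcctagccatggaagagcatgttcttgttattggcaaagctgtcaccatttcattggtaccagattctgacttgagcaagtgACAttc

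Both boxes were found in 14 of the 34 snoRNA genes and the ACA in 9, again with the overlapping genes of *Snord80* and *Snora16a* counted separately. Over all 1558 annotated mouse snoRNAs, 19.1% held both boxes and 19.3% the ACA. These are matches to fixed letters on the transcribed strand. *Snora73a* and *Snora73b*, at 205 bases each, differed at 7 positions, so reads could be split between them.

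RefSeq starts on GRCm38.p6 were found for all members except *Snhg6*, 11 in all. A run of at least 5 C or T from the first base was present at 4 of them, in 4 genes, while 4.44% of the 32851 RefSeq starts of the mouse had such a run. The first 30 bases of these 4 starts are given with the run in capitals, to be read beside the TOP class. The runs of *Gas5* and *Snhg8* open with C, as in that class, and those of *Snhg12* and *Snhg17* open with T at the annotated base. This *Gas5* start is that of the tested isoform ENSMUST00000159663.7, with 3.63% of the gene's summed level. The most abundant isoform, ENSMUST00000159706.7 (85.9%), opens with neither C nor T in its GENCODE model.
Gas5, chr1:161035166-161035195 (+): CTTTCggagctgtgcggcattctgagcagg
Snhg12, chr4:132308678-132308707 (+): TTTCTCgcttcatccgcggtccctgtctgt
Snhg17, chr2:158361480-158361509 (-): TTTCCTgtcgcgtggatgtgtttcctctct
Snhg8, chr3:123508307-123508336 (-): CTCTTTggctgcgatccgcctacgagtatg

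*Snhg15*, which is described below as the member that passed the test, had neither C nor T as the first base of its RefSeq start.
Snhg15, chr11:6528731-6528760 (-): aactttaagcacacgtgagcgtcctcagct

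In the GENCODE models, 8 of the 29 tested transcripts, from 6 genes, opened with a run of at least 5. The share over all GENCODE models was not computed, and the RefSeq share above is for other start positions.

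The level of a transcript is given in normalised estimated counts, as the back-transformed authors' mean over the 4 libraries. Values of single libraries were not analysed here, and library depth is unknown. The difference between KD and WT was obtained from the deposited variances, which give its size and not its direction. Which group was higher was not analysed here for any transcript, because only the columns of the authors' own comparison hold it. Every size below is an absolute log2 difference, with 95% confidence limits that may pass below 0, and the 2 group levels are given as a pair without saying which is KD. The variances also give whether the libraries of the groups can overlap. Where the squared difference exceeds 2 times the variance within groups, the KD and WT libraries must lie apart. Where it is smaller than that variance, they must overlap. Values between these limits leave it undetermined. With 2 libraries per group, libraries can also lie apart by chance, so that lying apart is not by itself a test. The test was limma's moderated F-test with Benjamini-Hochberg adjustment over all 34200 transcripts at a threshold of 0.05. The labels do not say that the replicates were separate cultures, so that p-values measure only the spread between these libraries, which may be technical.

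*Setd2* itself (ENSMUST00000153838.7) had group levels of 923 and 3680, a size of 1.99 (95% limits 1.78 and 2.21, adjusted p = 0.0144), and its libraries lay apart. The fibroblast markers were all detected, from 3083 for *Pdgfrb* to 273156 for *Col1a2*. *Epcam* had no tested transcript, and the other epithelial, leukocyte and endothelial markers had summed levels between 22.5 (*Krt8*) and 343 (*Cd68*).

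The host transcripts were abundant and differed little between KD and WT. Their median level was 1574, against 155 over all transcripts, and 28 of 29 had a level of at least 100. Only *Snhg15* passed the test, 1 of 29 transcripts or 3.45%, where 9.68% of all transcripts were called. The median size was 0.17 for the members and 0.35 over all transcripts, and 0.29 over the 21789 transcripts within the members' range of levels, of which 13.9% were called. No member transcript reached a size of 1. A size of 0.5 was reached by 3 of 29 (10.3%), against 35.3% of all transcripts and 26.4% of those within the members' range of levels. The upper confidence limit stayed below 1 for 26 of the 29, and the highest was 1.17. The count of calls depended on the model. It was 0 with a prior variance that did not follow the level, where 0.371% of all transcripts were called. It was 5 of 28 (17.9%) when low transcripts were left out, against 26.4% of all, and 6 of 29 (20.7%) with a variance of the kind Sleuth uses, against 18.2% of all. The members' share was thus not below that of all transcripts under each model.

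KD and WT libraries lay apart for 13 of the 29 member transcripts (44.8%). They did so for 54.8% of all transcripts and 63.3% of those within the members' range of levels. Libraries overlapped for 12 members (41.4%), against 34.2% of all transcripts and 27.2% within that range, and 4 members were undetermined. The SD within groups had a median of 0.14 on the log2 scale for the members and 0.19 over all transcripts. Over the transcripts within the members' range of levels that median was 0.12, slightly below that of the members. At an unadjusted p under 0.05, 7 members (24.1%) passed, against 28.2% of all transcripts and 38.4% of those within the members' range of levels. The median size of the 2090 transcripts classed as lincRNA was 0.38, and 3.01% of them were called. These were far less abundant than the members, with a median level of 21.6, and only 369 had a level of at least 100.

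**Figure D1:**
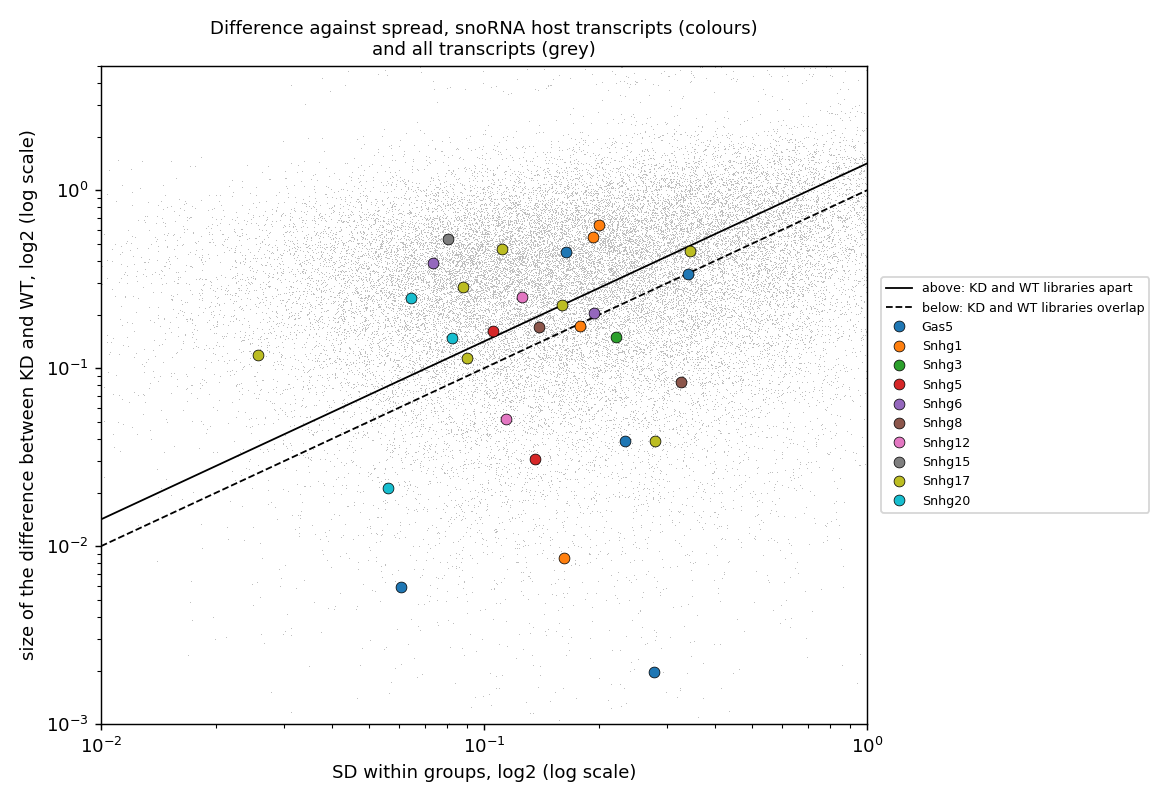
Size of the difference between KD and WT (y axis, log2, log scale) against the SD within groups (x axis, log2, log scale) for the 29 host transcripts (coloured by gene) and all 34200 transcripts (grey, those within the axes). Above the solid line the KD and WT libraries lie apart, which 13 host transcripts do, and below the dashed line they overlap, which 12 do.

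The hosts ranked widely by abundance. Summed over tested transcripts and per kb of transcript, *Gas5* came first at 88506 normalised counts per kb, followed by *Snhg1* at 38274 and *Snhg8* at 30379. *Snhg12* (10876), *Snhg6* (8831), *Snhg17* (7630) and *Snhg5* (7327) formed a middle range. *Snhg15* (4297) and *Snhg3* (3138) were lower and *Snhg20* was lowest at 656. No error is attached to these sums and their neighbours in the order were not tested, because the sums combine means of transcripts whose covariance was not analysed here.

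**Figure D2:**
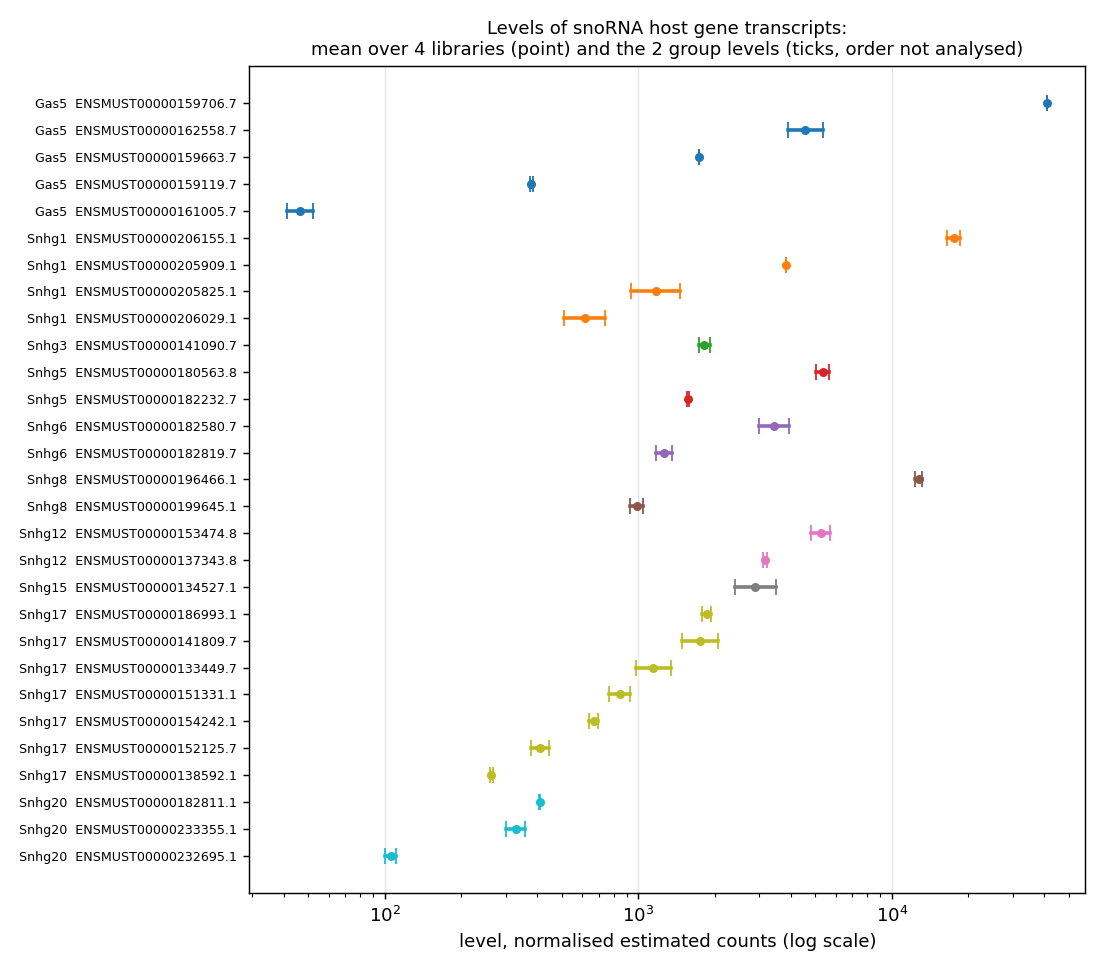
Level of each host transcript in normalised estimated counts (x axis, log scale). Points are the authors' means over the 4 libraries and ticks the 2 group levels, whose order is not known. Levels run from 46.5 to 41064, both in *Gas5*.

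*Gas5* (chr1:161034422-161038539, plus strand, GRCm38), the most abundant of these hosts, has 25 annotated transcripts, of which 20 are classed as retained intron. The other 5 were the tested ones. ENSMUST00000159706.7, with 11 exons in 557 bases, held 85.9% of the summed level. Its group levels were 40980 and 41148, a size of 0.0059 (95% limits -0.18 and 0.19, adjusted p = 0.969), and its libraries overlapped. Differences above 0.19 in size lie outside that interval. The next isoform, ENSMUST00000162558.7, starts further downstream and has an additional exon. It had group levels of 3905 and 5341, with a size of 0.45 (0.12 to 0.78). Its libraries lay apart, but it did not pass the adjusted threshold (adjusted p = 0.0961 with limma). The isoforms ENSMUST00000159663.7 and ENSMUST00000159119.7, at levels of 1733 and 379, had sizes of 0.0020 and 0.039 and overlapping libraries. ENSMUST00000161005.7, at a level of only 46.5, had a size of 0.34 with limits of -0.49 and 1.17. *Gas5* overlaps *Zbtb37* on the opposite strand, and the use of strand in read assignment is not given in the sources used here.

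**Figure D3:**
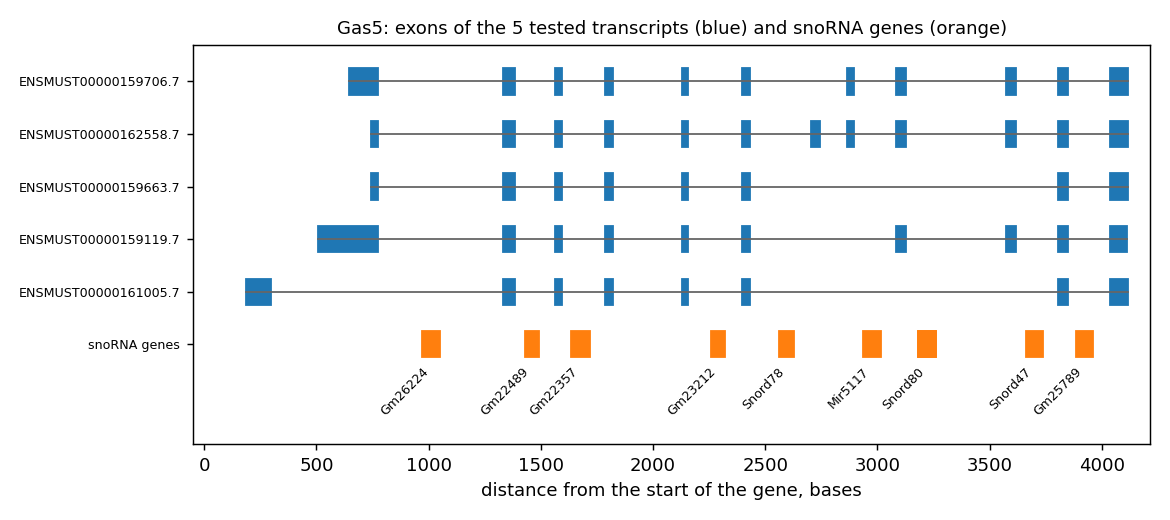
Exons of the 5 tested *Gas5* transcripts (blue) and the snoRNA genes of the locus (orange), by distance from the start of the gene in bases. Each snoRNA lies in an intron of the tested transcripts. *Snord80* is annotated as 2 overlapping genes and drawn under 1 name.

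*Snhg1* (chr19:8723475-8726443, plus strand), a host of C/D box snoRNAs with 14 retained intron transcripts among its 18, showed a like division between isoforms. The major transcript ENSMUST00000206155.1, 75.8% of the summed level, had group levels of 16531 and 18632 and a size of 0.17 (-0.17 to 0.52), and its libraries overlapped. ENSMUST00000205909.1, at a level of 3824, had a size of 0.0086 with overlapping libraries. The less abundant isoforms had the largest sizes of all members. ENSMUST00000205825.1 had group levels of 939 and 1462, a size of 0.64 (0.23 to 1.04) and adjusted p = 0.0726 with limma. ENSMUST00000206029.1 had group levels of 509 and 742, a size of 0.54 (0.13 to 0.96) and adjusted p = 0.105 with limma. Libraries lay apart for both, and neither passed the threshold. Whether isoforms of a gene differ from each other in their response was not tested.

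*Snhg5* (chr9:88521050-88522929, minus strand) carries the near-identical *Snord50a* and *Snord50b*. Its major transcript ENSMUST00000180563.8 had group levels of 5044 and 5640. The size was 0.16 (-0.086 to 0.41, adjusted p = 0.336 with limma), with libraries that lay apart. ENSMUST00000182232.7 was at 1557 and 1591, a size of 0.031, with overlapping libraries.

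*Snhg6* (chr1:9941959-9944118, minus strand) hosts *Snord87* and overlaps *Mcmdc2* on the opposite strand. ENSMUST00000182580.7, 73.2% of its level, had group levels of 3007 and 3947, a size of 0.39 (0.17 to 0.61). The libraries lay apart with an SD of 0.074 within groups, and the adjusted p of 0.0559 with limma lay just past the threshold. The isoform ENSMUST00000182819.7 was at 1177 and 1356, a size of 0.20 (-0.19 to 0.60).

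*Snhg3* (chr4:132348014-132353686, minus strand) carries the H/ACA box snoRNAs *Snora73a* and *Snora73b* and shares its strand with the overlapping *Rcc1*, which encodes the nucleotide exchange factor of the GTPase Ran. Its tested transcript ENSMUST00000141090.7 had group levels of 1731 and 1921, a size of 0.15 (-0.28 to 0.58, adjusted p = 0.599 with limma), and its libraries overlapped. In this transcript 76.6% of the 31-base words occur in no other gene, so a share of its reads cannot be assigned with certainty.

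*Snhg8* (chr3:123507552-123508404, minus strand), host of *Snora24*, had the third highest level per kb. ENSMUST00000196466.1, 92.8% of its level, was at 12406 and 13148. The size of 0.084 had wide limits for so abundant a transcript (-0.50 and 0.67), since the SD within groups was 0.33, and its libraries overlapped. ENSMUST00000199645.1, at 931 and 1049, had a size of 0.17 (-0.15 to 0.50).

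*Snhg12* (chr4:132308623-132311024, plus strand) carries snoRNAs of both classes, among them *Snora16a*, *Snora44* and *Snord99*. ENSMUST00000153474.8 had group levels of 4805 and 5720, a size of 0.25 (-0.021 to 0.52, adjusted p = 0.203 with limma), and its libraries lay apart. ENSMUST00000137343.8 was at 3094 and 3207, a size of 0.052, with overlapping libraries. In this second transcript 82.5% of the 31-base words occur in no other gene.

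*Snhg15* (chr11:6525591-6528760, minus strand) differed between KD and WT. Its tested transcript ENSMUST00000134527.1 spans chr11:6527899-6528746 with 2 exons in 675 bases, and *Snora9* lies in its exon. The group levels were 2410 and 3491, so that the higher group exceeded the lower by 44.9%. The size was 0.53 (95% limits 0.31 and 0.76, adjusted p = 0.0354 with limma). The SD within groups was 0.081 and the libraries lay apart. The call was lost, with adjusted p = 0.147, when the prior variance did not follow the level. In this transcript 84.0% of the 31-base words occur in no other gene.

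*Snhg17* (chr2:158353700-158361580, minus strand) had 7 tested transcripts, the most of all members, and none passed the test. The 1-exon transcript ENSMUST00000186993.1, 3144 bases long, was at group levels of 1790 and 1943, a size of 0.12 (-0.081 to 0.32). It had the smallest SD within groups of the members (0.026). In it 91.9% of the 31-base words occur in no other gene, and 230 genes share the rest. The 6-exon transcript ENSMUST00000141809.7, at 1485 and 2057, had the largest size of the gene, 0.47 (0.19 to 0.74, adjusted p = 0.0622 with limma). Libraries lay apart for both. ENSMUST00000133449.7 had a similar size of 0.46 but an SD within groups of 0.34, and its limits ran from -0.17 to 1.09. ENSMUST00000151331.1 was at 764 and 931, a size of 0.29 (0.010 to 0.56). The other 3 isoforms, at levels from 263 to 666, had sizes between 0.039 and 0.23. Among them ENSMUST00000154242.1 had the lowest share of words found in no other gene of all members, 76.3%.

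*Snhg20* (chr11:117076008-117078955, plus strand) was the least abundant member. ENSMUST00000182811.1, a 1-exon transcript, was at 405 and 411, a size of 0.021 with overlapping libraries. ENSMUST00000233355.1, at 301 and 357, had a size of 0.25 (-0.068 to 0.56), and ENSMUST00000232695.1, at 100.2 and 111, one of 0.15 (-0.31 to 0.60). Libraries lay apart for both spliced isoforms, and neither passed the test. Their SD within groups (0.064 and 0.082) was smaller than the SD of read assignment (0.10 and 0.15).

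**Figure D4:**
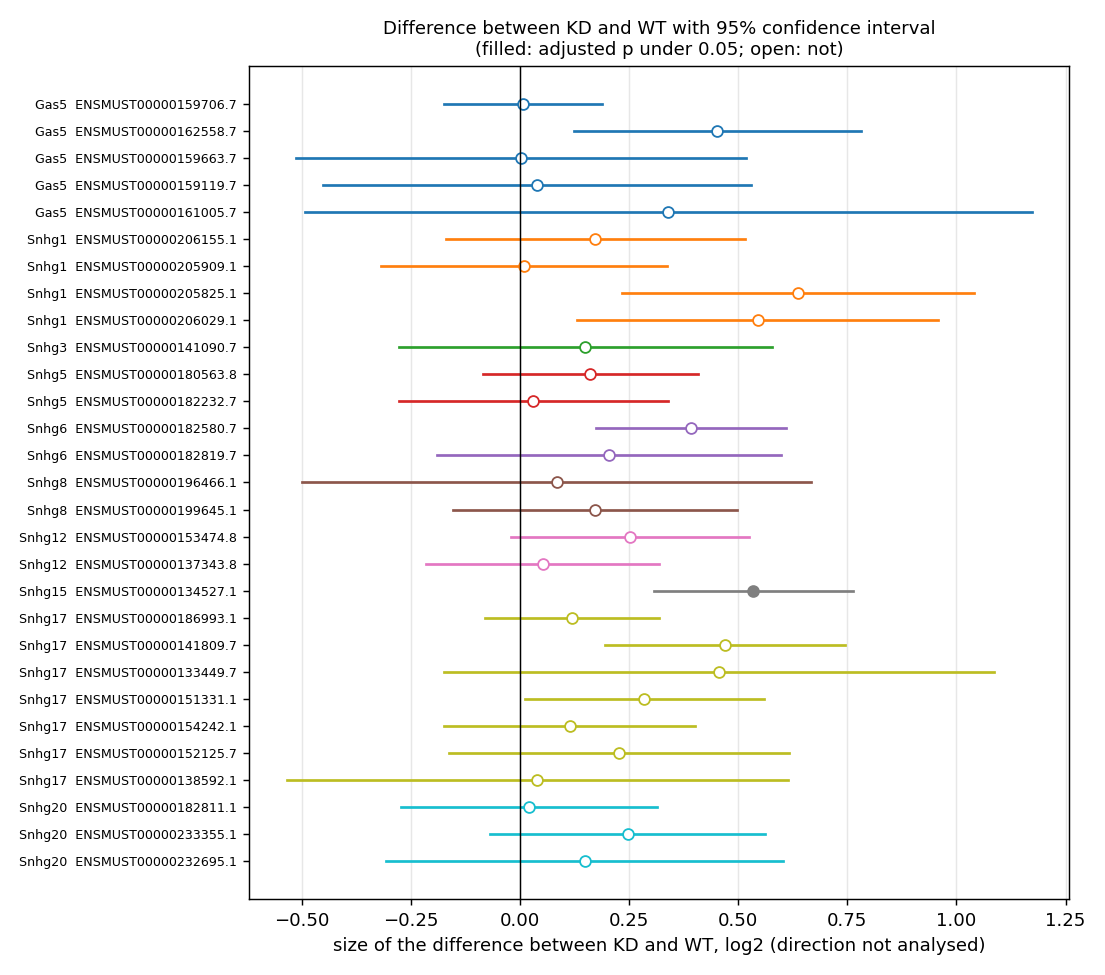
Size of the difference between KD and WT (x axis, log2, direction not analysed) for the 29 host transcripts, with 95% confidence intervals. The filled point, *Snhg15* at 0.53, passed the adjusted threshold, and the open points did not.

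The snoRNA genes inside the hosts have rows of their own in the table, and 26 of the 34 were tested. In libraries of polyadenylated RNA, reads of a mature snoRNA and of an unspliced host intron fall on the same bases and cannot be told apart. Host transcripts classed as retained intron were not among the tested rows. Some tested transcripts nevertheless hold a snoRNA gene in an exon, such as the 1-exon *Snhg20* transcript ENSMUST00000182811.1, which contains *Gm26083*. The levels of the snoRNA rows ran from 27.9 to 2158, below the major transcript of the host in *Gas5* and *Snhg1*. These levels are not divided by length. The snoRNA genes tested in these hosts have 60 to 126 bases, and the major transcripts have 557 (*Gas5*) and 605 (*Snhg1*).

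Of these 26 rows, 1 was called (3.85%), against 9.68% of all transcripts and 3 of the 265 snoRNA rows of the table. KD and WT libraries lay apart for 18 (69.2%), against 54.8% of all transcripts and 45.7% of all snoRNA rows, which include these. The snoRNA rows were more abundant than these (median level 483, against 155 and 93.3), and among the 18808 transcripts with a level of at least 100 libraries lay apart for 65.3%. They overlapped for the other 8 snoRNA rows. The median size of the 26 rows was 0.39, against 0.24 over all snoRNA rows. It was 0.35 over all transcripts and 0.28 over those with a level of at least 100. At an unadjusted p under 0.05, 13 of 26 passed, against 18.9% of all snoRNA rows and 41.5% of transcripts with a level of at least 100. Rows of the same host come from the same RNA and are not independent of each other.

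In *Gas5*, 9 snoRNA rows were tested, none was called, and libraries lay apart for 8. *Gm22357*, a C/D box snoRNA printed above and the most abundant of them, had group levels of 1853 and 2513, a size of 0.44 (0.21 to 0.67). Its adjusted p was 0.0501 with limma, at the edge of the threshold. *Gm23212*, in a later intron of the same gene and likewise with both boxes, was at 1491 and 1503, a size of 0.012 (-0.20 to 0.22), with overlapping libraries. The other 7 had sizes from 0.20 to 0.45. Among them *Snord78* was at 1584 and 1946 (size 0.30), *Snord80* at 498 and 657 (0.40) and *Snord47* at 392 and 513 (0.39). Each of the 9 lies in an intron of all 5 tested *Gas5* transcripts, and the dominant spliced isoform had a size of 0.0059.

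In *Snhg1*, libraries lay apart for 7 of 8 snoRNA rows. *Gm24452* was called, with group levels of 632 and 988, a size of 0.64 (0.31 to 0.97, adjusted p = 0.0484 with limma). *Gm25894*, at 965 and 1518, had a size of 0.65 (0.28 to 1.03, adjusted p = 0.0602 with limma). *Gm22680*, at 1609 and 2381, had a size of 0.57 (0.25 to 0.88, adjusted p = 0.0569 with limma). *Snord22*, which lies in an exon of 1 tested transcript, was at 487 and 549, a size of 0.17 with overlapping libraries. The major spliced *Snhg1* transcript also had a size of 0.17.

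The remaining hosts had 1 or 2 tested snoRNA rows each, and *Snhg15* had none. *Snora73a*, of *Snhg3*, overlaps the first exon of the tested host transcript and reaches beyond its start. It was at 91.0 and 160 and had the largest size of the snoRNA rows, 0.81 (0.34 to 1.28, adjusted p = 0.0623 with limma). Its near copy *Snora73b* was at 91.1 and 95.6, a size of 0.068. *Snord87* of *Snhg6* had a size of 0.40 (-0.021 to 0.83), and *Gm26003* of *Snhg17*, at a level of 59.4, one of 0.63 (0.091 to 1.17). *Snora24* (*Snhg8*), *Snora16a* (*Snhg12*), and *Snord50a* and *Snord50b* (*Snhg5*) had sizes between 0.039 and 0.15 with overlapping libraries. *Gm26083* of *Snhg20*, at a level of 27.9, had a size of 0.26 with limits of -0.71 and 1.23.

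**Figure D5:**
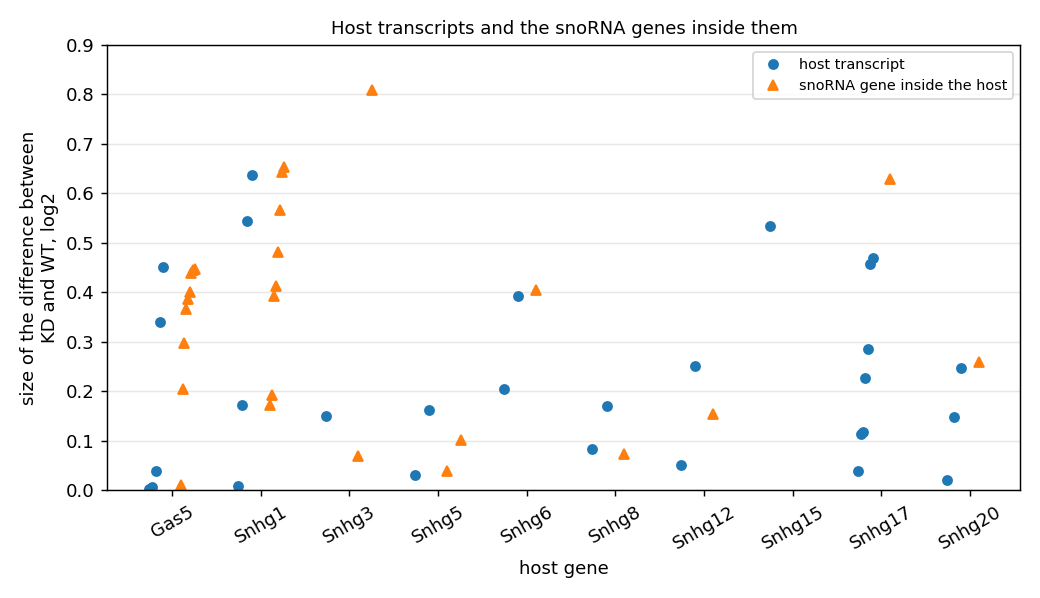
Size of the difference between KD and WT (y axis, log2) for the tested transcripts of each host (circles) and for the snoRNA genes inside it (triangles), by host gene (x axis). In *Gas5* the snoRNA rows reach 0.45, apart from *Gm23212* at 0.012, and in *Snhg1* they run from 0.17 to 0.65.

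Other genes of snoRNA biology were read as lists, and each called count stands against 9.68% over all transcripts and 15.6% over those with a level of at least 100, which most listed transcripts had. Every list count fell to 0 with a prior variance that did not follow the level, where 0.371% of all transcripts were called. The protein-coding hosts had 11 of 50 transcripts called when only levels of at least 100 were kept, against 26.4% of all such transcripts. With a variance of the kind Sleuth uses they had 17 of 54, against 18.2% of all. Among the core proteins of C/D and H/ACA particles, 2 of 10 transcripts were called. They were *Nop10* (4125 and 6303, size 0.61, adjusted p = 0.0380 with limma) and *Gar1* (3292 and 4954, size 0.59, adjusted p = 0.0215 with limma), both of the H/ACA particle. The list's median size was 0.27, against 0.35 over all transcripts and 0.28 over those with a level of at least 100. Of the particle assembly factors, 2 of 17 transcripts were called, *Ruvbl2* (size 0.76, adjusted p = 0.0183 with limma), an ATPase, and *Pih1d1* (0.66, adjusted p = 0.0335 with limma), its R2TP partner. The median of that list was 0.31, and *Nopchap1* had no tested transcript.

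Protein-coding snoRNA hosts had 6 of 54 transcripts called, in 5 of 30 genes, with a median size of 0.27. Among the called genes with a level of at least 100, the largest sizes were those of *Rcc1* (729 and 1527, size 1.07, 0.81 to 1.33, adjusted p = 0.0183 with limma), which overlaps *Snhg3*, and of *Rps12* (0.75, adjusted p = 0.0260 with limma), a ribosomal protein gene. Further noncoding hosts had 1 of 11 transcripts called, *Snhg14* (146 and 252, size 0.78, adjusted p = 0.0457 with limma), the long host of imprinted snoRNA clusters. Their median size was 0.20, and *Snhg4*, *Snhg7* and *Snhg16* had no tested transcript. Of the nonsense-mediated decay factors, 4 of 18 transcripts were called, with *Smg9* (0.77, adjusted p = 0.0380 with limma) and *Smg5* (0.70, adjusted p = 0.0181 with limma) as the largest called at a level of at least 100 and a list median of 0.26. Since directions were not analysed, these counts do not say whether the members of a list moved together.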

How the data were processed

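RNA-seq of NIH/3T3 cells was analysed in 2 KD and 2 WT libraries, grouped by the condition in their labels. The authors prepared stranded polyadenylated RNA libraries, removed adapters with BBDuk, quantified reads per transcript with Kallisto and fitted Sleuth. The index and the filter on low counts are not given in the sources used here. The deposited means are natural log values of normalised estimated counts plus 0.5, averaged over 4 libraries by the authors. The deposited variances, on the squared natural log scale, cover all libraries, the spread within groups and the read assignment. Columns of the authors' own comparison (effects, their errors, p-values and q-values) were not used. The table of genes, which holds p-values and q-values, was not used either.

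The size of the difference was computed per transcript from 3 deposited variances (over libraries, within groups, read assignment), without its sign. limma 3.58.1 in R 4.3.3 moderated the variance within groups (2 residual degrees of freedom) with a trend on the mean level, and the F-test was adjusted by Benjamini-Hochberg over all transcripts. The procedure was tested on simulated data. Alternatives were a prior variance without a trend, a minimum level of 100, and a chi-square test with the larger of the transcript's and the smoothed variance. Depth per library is unknown, and with 2 libraries per group the precision is that of the confidence limits given.

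GENCODE transcripts of GRCm38 matched 98.6% of the identifiers. The named genes were all members, *Setd2*, and in each list the 2 called genes of largest size at a level of at least 100. snoRNA rows, named for their hosts, were chosen after their values were seen. The members and lists were chosen with earlier results of these data known.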

Additional observations from a re-analysis of the deposited data

How the results depend on the processing

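Sizes of difference were computed before any model was fitted, so their constancy across models is no check. The p-values and calls moved with the model, and the confidence limits given above hold only for the main model, with a trend. Without a trend in the prior variance, 127 transcripts were called in place of 3312, with 0 among the hosts, the core proteins, the assembly factors, the protein-coding hosts, the further noncoding hosts and the decay factors; 4 members then had an unadjusted p under 0.05. With only levels of at least 100, 4965 of 18808 transcripts (26.4%) were called, with 5 hosts, 5 assembly factors and 11 transcripts of protein-coding hosts. With the Sleuth-type variance, 6233 of all transcripts (18.2%) were called. Among them were 6 hosts, 4 core proteins, 6 assembly factors, 17 transcripts of protein-coding hosts and 8 decay factors. The 4 hosts added under both of these were *Gas5* ENSMUST00000162558.7 (adjusted p = 0.0439 and 0.0342 with limma and the chi-square test), *Snhg1* ENSMUST00000205825.1, *Snhg6* ENSMUST00000182580.7 and *Snhg17* ENSMUST00000141809.7, and the second added *Snhg1* ENSMUST00000206029.1. The cause of these shifts was not tested. Summed over levels of at least 100, *Gas5* was at 47742 in place of 47789. No paired analysis was possible because values of single libraries were not analysed here, and for the same reason no library was left out in turn.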
